A study of Mus musculus with 18 samples.

Results

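The 7 genes described here, Duox1, Shf, Rapgef4, Ccdc141, Msc, Plxna4 and Hhip, gave much less new RNA in Med24 knockout than in rescued mouse embryonic stem cells before ERK signalling was switched on. They were chosen by their values in that one contrast, knockout against rescued cells at 0 h, as the most reduced of 25897 gene symbols. Genes with low counts or with overlapping groups at 0 h, predicted gene models and Med24 itself were passed over. All 7 were among the 14128 genes with enough reads to test. The values at 0 h chose the genes and are therefore a description with no test, while the libraries taken 2 h and 8 h after ERK activation played no part in the choice and are tested.

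The cells were of the E14tg2a line, on a 129SV background. In all of them endogenous Med24 was knocked out, a tetracycline-regulated FLAG-Med24 cDNA was present, and cRAF-ErT2, a RAF kinase that 4-hydroxytamoxifen (4OHT) turns on, was stably expressed with the doxycycline-responsive activator from 1 cassette. Knockout cells (labelled KO) had been kept for several passages without doxycycline and rescued cells (labelled WT) with it at 500 nM, so the rescued cells are cDNA-complemented knockouts and not an unedited line. Both were grown in serum with LIF and 2 µM Chir99021, were moved for 24 h into serum with LIF and 250 nM of the FGF receptor inhibitor PD173074, and were then left untreated (0 h) or given 250 nM 4OHT for 2 h or 8 h. RNA made in the last 15 min was labelled with 5 mM ethynyl uridine, captured and sequenced from clones A, B and C of each of the 6 groups, 18 libraries in all. Effects of Med24 and of doxycycline cannot be told apart in this design.

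Mediator is a large complex that carries signals from transcription factors at enhancers to RNA polymerase II at promoters, and Med24 belongs to its tail, the module that many activators touch. The 7 genes have unrelated products. Duox1 is a membrane oxidase that makes hydrogen peroxide, Rapgef4 (Epac2) is an exchange factor that activates the GTPase Rap when cAMP binds it, Shf is an SH2 adaptor protein, Ccdc141 is a coiled-coil protein that acts in migrating neurons, Msc (musculin) is a bHLH repressor, Plxna4 is a semaphorin receptor and Hhip is a surface protein that binds and sequesters Hedgehog ligands.

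The libraries held 6691177 to 14541145 counts each. A gene with no read could still have had up to 3 counts, or 0.206 to 0.448 counts per 1000000 (CPM). Med24 reads were between 34.0 and 49.2 CPM in the 9 knockout libraries and between 400 and 1775 CPM in the 9 rescued ones. In rescued cells they averaged 548 CPM at 0 h, 1635 CPM at 2 h and 404 CPM at 8 h, so new Med24 RNA differed between times. These reads do not give the level of Med24 protein. The part of Med24 levels in changes of the gap between knockout and rescued cells over time was not tested. All 10 pluripotency markers looked for were detected in every group, and they summed to 2437 to 2464 CPM in knockout against 2694 to 2726 CPM in rescued libraries at 0 h, 2038 to 2220 against 1736 to 1772 CPM at 2 h, and 2046 to 2375 against 1838 to 1942 CPM at 8 h. At 2 h and at 8 h 6 of the 10 were higher in knockout cells and none lower. Summed primitive endoderm markers were 349 to 383 CPM in knockout against 259 to 286 CPM in rescued libraries at 0 h, 219 to 314 against 121 to 141 CPM at 2 h, and 228 to 291 against 171 to 180 CPM at 8 h. Summed trophectoderm markers were 210 to 215 against 173 to 188 CPM at 0 h, 176 to 188 against 445 to 464 CPM at 2 h, and 496 to 585 against 675 to 731 CPM at 8 h. Most of the gap at 2 h was in Tead4, with 82.3 against 309.5 CPM, and at 8 h it had 357 against 491 CPM. Neural markers summed to 35.5 to 49.8 CPM in knockout and 53.3 to 76.3 CPM in rescued libraries, with 2 to 5 of 10 at 0 in a group, and fibroblast markers to 13.4 CPM or less, with 1 to 4 of 10 at 0. The part of these shifts in the results below was not tested, and fewer cells that make an RNA cannot be told apart from less of it per cell. In 3 knockout libraries (2 h clone A, 8 h clones B and C) the 25 genes that average over 1000 CPM held 36.5%, 38.5% and 45.8% of the counts, against a median of 22.6%.

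Of the 7 genes, 4 lie on mouse chromosome 2. On the GRCm38 assembly (mm10) Rapgef4 spans chr2:71981240-72257474 on the plus strand and Ccdc141 spans chr2:77009902-77170636 on the minus strand. Duox1 (chr2:122315672-122347972, plus strand) and Shf (chr2:122348892-122369162, minus strand) end 919 bases apart, tail to tail. Msc spans chr1:14753346-14755992, Plxna4 chr6:32144268-32588192 and Hhip chr8:79965851-80058006, all 3 on the minus strand. Annotated antisense transcripts overlap Rapgef4, Msc and Plxna4. Whether counting used strand or introns is not given in the sources used here, so reads of these antisense transcripts cannot be told apart from those of the genes. For the same reason new RNA that runs past the end of Duox1 or Shf into the other gene cannot be told apart from that gene's own.

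RefSeq promoter windows on GRCm38.p6 (250 bases before to 50 after a start) were at hand for 5 of the 7 genes and not for Msc or Plxna4. The 250 bases before the start are printed for the gene with the largest difference at 0 h (Duox1), the gene with the largest at 2 h (Rapgef4), and the gene whose difference had the opposite sign at 2 h (Hhip). Capitals mark exact matches, on either strand, to any of 12 motifs searched. These were TATAAA, CCGGAAGT (ETS), TGACTCA (AP-1), GCGTGGGCG (EGR), CACCTG and CAGCTG (E-boxes), GGGCGGG (SP and KLF factors), TGACGTCA (cAMP response element), ATGCAAAT (octamer), TCAAGGTCA (Esrrb), TGGGTGGTC (GLI) and TTCNNNGAA (STAT), and overlapping matches were allowed. The 3 sequences are at chr2:122315422-122315671 (plus strand), chr2:71980965-71981214 (plus strand) and chr8:80058009-80058258 (minus strand).
Duox1: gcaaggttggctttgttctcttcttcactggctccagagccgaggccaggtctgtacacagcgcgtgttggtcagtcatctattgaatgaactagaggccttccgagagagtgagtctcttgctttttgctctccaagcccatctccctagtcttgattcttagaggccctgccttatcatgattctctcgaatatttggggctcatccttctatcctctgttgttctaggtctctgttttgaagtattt
Rapgef4: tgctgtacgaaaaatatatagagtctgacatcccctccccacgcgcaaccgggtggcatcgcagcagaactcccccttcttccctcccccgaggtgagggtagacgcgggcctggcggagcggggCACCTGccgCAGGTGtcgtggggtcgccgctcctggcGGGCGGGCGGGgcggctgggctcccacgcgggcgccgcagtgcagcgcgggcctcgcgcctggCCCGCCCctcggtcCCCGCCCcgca
Hhip: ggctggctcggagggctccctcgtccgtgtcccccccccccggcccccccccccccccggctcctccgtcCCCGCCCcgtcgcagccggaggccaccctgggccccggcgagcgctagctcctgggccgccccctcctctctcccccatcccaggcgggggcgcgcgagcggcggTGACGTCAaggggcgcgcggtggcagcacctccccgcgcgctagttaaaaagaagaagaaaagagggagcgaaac

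Rapgef4 had 4 matches to GGGCGGG, 2 of them overlapping, and 2 to CACCTG, in a window of 76.7% G and C with an observed over expected CpG ratio of 0.908. Hhip held 1 GGGCGGG and, 75 bases before its start, 1 TGACGTCA. The Duox1 window held none of the 12 motifs and was 46.7% G and C, with a CpG ratio of 0.372. Ccdc141, not printed, had a CpG ratio of 0.39 and 1 CAGCTG. The 2 Shf windows had ratios of 0.748 and 0.785 with 1 and 2 GGGCGGG, and the first of them also held 1 CACCTG. Among all 32851 promoters of the table GGGCGGG was in 25.6%, CACCTG in 20.2%, CAGCTG in 16.3% and TGACGTCA in 1.79%, and the median CpG ratio was 0.384.

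At 0 h the genes were chosen for the gap between groups. Their log2 differences between knockout and rescued cells ran from -3.90 (Duox1) to -1.60 (Plxna4), where 16.4% of all tested genes were called in either direction and 0.46% were called and more than 2-fold lower. That every knockout library lay below every rescued one was part of the choice, so it holds for all 7, and 17.1% of all genes met it. The 2 genes just inside the ranking were Hhip and Plxna4, both at -1.60. Just outside it came Egr1, an immediate early transcription factor, at -1.44, Notum, a Wnt-inactivating enzyme, at -1.40 and Slc29a3, a nucleoside transporter, at -1.36. A further 9 called genes were as strongly reduced but averaged under 5 CPM.

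At 2 h, in libraries that did not choose them, 5 of the 7 genes were again lower in knockout cells (Duox1, Shf, Rapgef4, Ccdc141 and Msc). Hhip was higher, and Plxna4 was not called. Calls here have an adjusted p under 0.05 in edgeR's quasi-likelihood test, with Benjamini-Hochberg adjustment over all genes. Among all genes 12.9% were called lower and 10.8% higher. More than 2-fold lower were 4 of the 7, against 2.53% of all genes, and in 6 every knockout library lay below every rescued one, against 19.2%. At 8 h 5 were lower (Duox1, Shf, Rapgef4, Ccdc141 and Plxna4), none was called higher, and Msc and Hhip were not called, against 17.1% of all genes lower and 14.5% higher. Again 4 were more than 2-fold lower, against 2.73%, and 5 had all knockout below all rescued libraries, against 22.1%. The median log2 difference of the 7, which was -1.95 at 0 h, came to -1.28 at 2 h and to -1.16 at 8 h, where that of all genes was within 0.01 of 0. The p-values rest on the spread among clones within groups, estimated over all 6 groups together and not for the compared groups alone. The labels do not say whether the 3 clones of a group were grown separately.

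**Figure D1:**
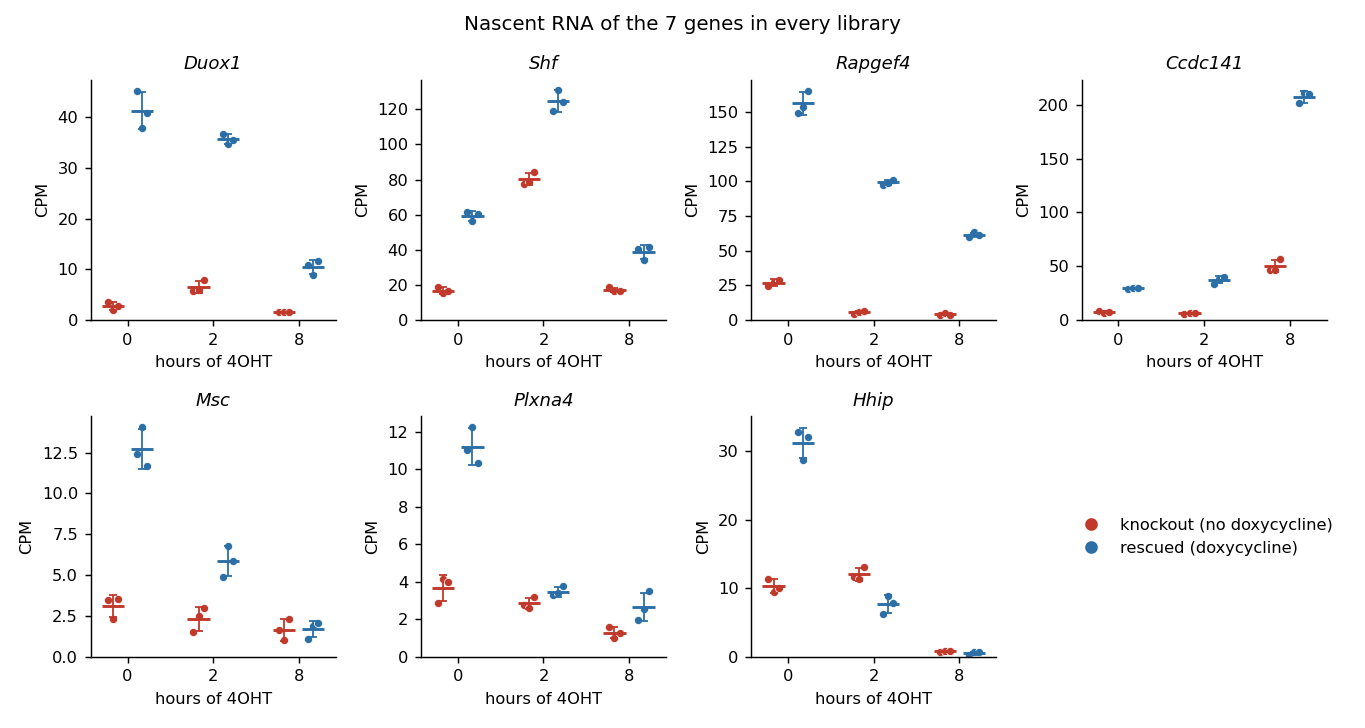
New RNA of each gene in CPM (y axes, each from 0) at 0, 2 and 8 h of 4OHT, with 1 point per library, knockout (red) left of rescued (blue), and the mean ± SD of 3 clones. The values of the 2 states overlap for Msc at 8 h alone, and separation at 0 h was part of the choice of genes. For Hhip the knockout values are the higher ones at 2 h and 8 h.

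For clones A, B and C in turn, new RNA of Duox1 at 0 h was 3.56, 2.02 and 2.80 CPM in knockout clones, against 45.2, 37.9 and 40.8 CPM in rescued clones. At 2 h it was 5.65, 6.02 and 7.89 CPM in knockout clones and 36.7, 34.8 and 35.5 CPM in rescued clones, and at 8 h 1.61, 1.5 and 1.68 against 10.9, 8.98 and 11.6 CPM. No knockout library reached a rescued one at any time. The knockout level was 6.71% of the rescued level at 0 h, 18.6% at 2 h (log2 difference -2.43 ± 0.127 SE, adjusted p = 7.99e-16, edgeR) and 15.2% at 8 h (-2.72 ± 0.215, adjusted p = 1.51e-11, edgeR). Between 2 h and 8 h Duox1 fell in both states, by 2.04 on the log2 scale in knockout and by 1.75 in rescued cells, and the difference between these steps was -0.29 ± 0.285 (adjusted p = 0.606, edgeR).

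Duoxa1, which encodes the maturation factor that Duox1 needs to leave the endoplasmic reticulum, lies head to head with Duox1, with 1941 bases between the genes. It had 3 counts in all over the knockout libraries at 0 h and 74 over the rescued ones, a ratio of rescued over knockout of 28.2 (exact 95% counting interval 9.27 to 140). At 2 h it had 14 counts in knockout and 59 in rescued libraries and was lower in knockout cells (log2 difference -2.0 ± 0.396, adjusted p = 0.000252, edgeR). At 8 h 2 and 3 counts were left and no difference was detectable at this depth. Duox2 and Duoxa2, the paralogous pair next to it, had 102 and 52 counts over all 18 libraries and were not tested. Sord, the next tested gene on that side, differed by -0.02, 0.05 and -0.20 at 0, 2 and 8 h, and none of these was called. Among the 5 tested genes of the NADPH oxidase list other than Duox1, 1 was lower at 2 h (Duoxa1) and 1 at 8 h (Noxo1, an organizer subunit of Nox1). Noxo1 differed by -0.84 with an adjusted p of 0.0135 (edgeR), a call lost with DESeq2, without the 3 knockout libraries rich in abundant genes, without knockout 8 h clone B and without rescued 8 h clone A.

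**Figure D2:**
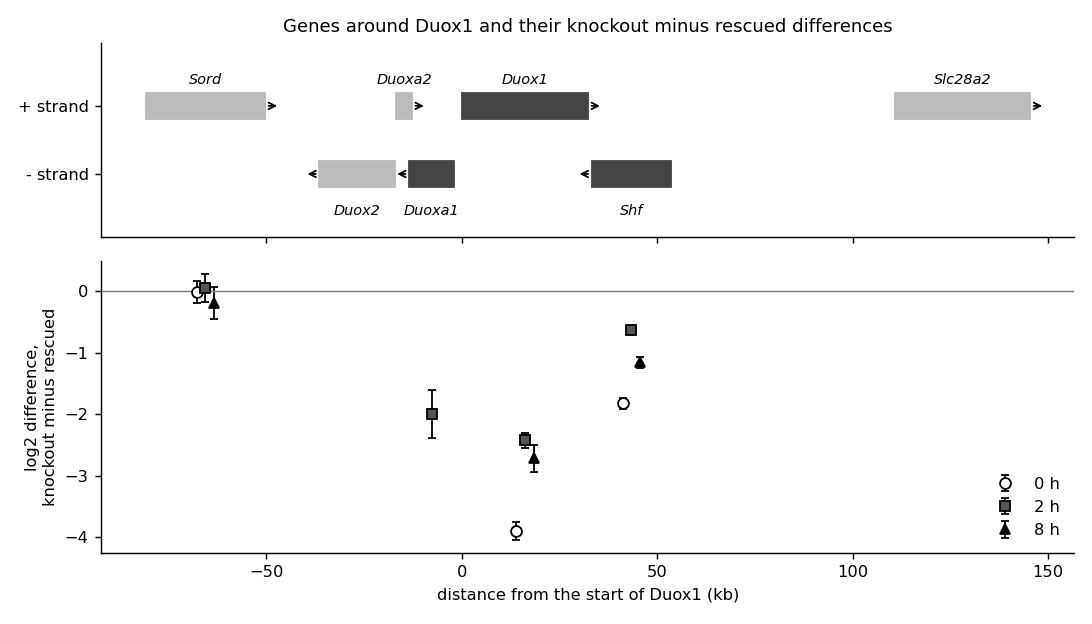
Top, genes of the table near Duox1 by strand, with distance from its start in kb and arrows for the direction of transcription. Bottom, log2 difference of knockout minus rescued cells at 0, 2 and 8 h (± SE) for Sord, Duox1 and Shf, and at 2 h alone for Duoxa1. Duoxa1 is not drawn at 0 h, with 3 knockout against 74 rescued counts, or at 8 h, with 2 against 3. Sord stays near 0 while Duox1, Duoxa1 and Shf lie below it.

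Shf, which ends next to Duox1 on the other strand, stood at 18.8, 15.1 and 16.4 CPM in knockout clones at 0 h, against 61.3, 56.2 and 60.5 CPM in rescued clones. At 2 h the knockout clones had 77.6, 78.7 and 84.0 CPM and the rescued ones 119, 131 and 124 CPM, and at 8 h 18.6, 16.3 and 16.6 against 40.2, 34.2 and 41.7 CPM. Shf was thus at its highest at 2 h in both states, with the groups apart at each time. Its knockout level was 28.2% of the rescued level at 0 h, 64.3% at 2 h (log2 difference -0.64 ± 0.0647, adjusted p = 3.07e-09, edgeR) and 44.8% at 8 h (-1.16 ± 0.0935, adjusted p = 2.46e-11, edgeR). The fall between 2 h and 8 h was steeper in knockout cells (-2.2) than in rescued cells (-1.68), with a difference of -0.52 ± 0.115 (adjusted p = 0.00271, edgeR), a call that is lost when libraries are scaled by their totals alone (adjusted p = 0.0541). Of 18 other tested adaptors with Src-homology domains, 2 were lower and 2 higher at 2 h, or 1 lower and none higher with library totals alone and 2 lower and 1 higher without the 3 knockout libraries rich in abundant genes. At 8 h 8 were lower and none higher (5 lower without those 3 libraries). Shb, the founder of the family to which Shf belongs, averaged 58.3 CPM in knockout cells against 81.1 CPM in rescued cells at 2 h and was lower there (-0.48, adjusted p = 6.7e-06, edgeR). At 8 h it averaged 156 against 352 CPM (-1.17, adjusted p = 1.77e-15, edgeR), with no such difference called at 0 h (0.04, adjusted p = 0.735, edgeR).

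Rapgef4 had the largest difference of the 7 once ERK was active. The 0 h values were 24.5, 27.2 and 29.2 CPM in knockout clones and 149, 154 and 165 CPM in rescued clones. The 2 h values were 4.73, 6.02 and 6.46 CPM in knockout clones and 97.7, 99.1 and 101 CPM in rescued clones, and those at 8 h 3.93, 4.83 and 3.56 against 59.7, 63.1 and 61.2 CPM. The knockout level was 17.2% of the rescued one at 0 h, 5.88% at 2 h (log2 difference -4.09 ± 0.0929, adjusted p = 6.14e-25, edgeR) and 6.74% at 8 h (-3.89 ± 0.11, adjusted p = 2.47e-22, edgeR). From 2 h to 8 h the rescued level fell by 0.70 on the log2 scale (adjusted p = 2.05e-11, edgeR). The knockout level fell by 0.50 (adjusted p = 0.0188, edgeR), a call that does not hold without knockout 2 h clone B or C or knockout 8 h clone A or C (adjusted p from 0.0505 to 0.112). The neighbours Pdk1 and Map3k20 had log2 differences between -0.30 and 0.12 at the 3 times, and were called lower at 8 h (both) and at 0 h (Map3k20 alone).

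Around Rapgef4 in the pathway, 8 of the 19 other tested genes of the cAMP, Epac and Rap list were lower in knockout cells at 2 h and 1 was higher. At 8 h 12 were lower and none higher, or 6 lower without the 3 knockout libraries rich in abundant genes. The 4 with the smallest p at 2 h included 3 that encode GTPase-activating proteins that turn Rap off. Sipa1l2 averaged 99.3 ± 4.0 CPM in knockout cells against 206 ± 1.9 CPM in rescued cells at 2 h (SD, n = 3 each), a log2 difference of -1.05. Rap1gap2 averaged 9.22 against 29.8 CPM (-1.69) and Sipa1 11.6 against 22.3 CPM (-0.94). The fourth, Rap2b, is itself a Rap GTPase and averaged 14.8 against 22.7 CPM (-0.61). All 4 had adjusted p of 2.69e-05 or less (edgeR), and all 4 were also lower at 8 h, Sipa1 only while knockout 8 h clone B was kept. Of 25 genes for cAMP synthesis, breakdown and protein kinase A, 7 were lower and none higher at 2 h, or 4 lower without the 3 libraries and 4 with library totals alone. The adenylyl cyclases Adcy5 (18 CPM in knockout, 29.1 CPM in rescued cells) and Adcy1 (13.5 against 20.2 CPM) were among them. At 8 h 4 were lower and 2 higher, or 8 lower and 1 higher with library totals alone. At 0 h 8 of the 19 genes were lower and none higher, and 5 of the 25 were lower and 1 higher. Of all tested genes 16.4% were called in either direction at 0 h. With library totals alone 1 gene of each list was lower at 0 h. Adcy1 was among those lower at 0 h (-0.775).

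Ccdc141 had its highest level at 8 h in both states. At 0 h it was at 8.50, 6.86 and 7.54 CPM in knockout clones and 29.2, 29.7 and 29.5 CPM in rescued clones. At 2 h the values were 5.50, 6.61 and 6.36 CPM in knockout and 33.8, 38.4 and 40.0 CPM in rescued clones, and at 8 h 46.6, 46.8 and 56.4 against 201, 211 and 210 CPM. The groups never overlapped. The knockout level was 25.9% of the rescued level at 0 h, 16.6% at 2 h (log2 difference -2.59 ± 0.11, adjusted p = 4.8e-18, edgeR) and 23.8% at 8 h (-2.07 ± 0.0655, adjusted p = 4.93e-21, edgeR). From 2 h to 8 h it rose by 2.99 in knockout and by 2.47 in rescued cells on the log2 scale. The difference of these steps, 0.52 ± 0.138 (adjusted p = 0.0138, edgeR), was not called with library totals alone (0.452), without the 3 knockout libraries rich in abundant genes (0.165) or without knockout 2 h clone A (0.0564). Ttn, the titin gene 27354 bases away, was higher in knockout cells at 0 h (0.45, adjusted p = 0.00135), 2 h (0.37, adjusted p = 0.0379) and 8 h (0.71, adjusted p = 3.06e-05, all edgeR). Sestd1, 9703 bases away, was at 57.6 CPM in knockout cells against 60.8 CPM in rescued cells at 0 h (-0.08, adjusted p = 0.474, edgeR). It was lower at 2 h (-0.18, adjusted p = 0.0261, edgeR) and 8 h (-0.75, adjusted p = 1.14e-11, edgeR). The calls at 2 h were lost in 6 (Ttn) and 5 (Sestd1) of 15 alternatives, library totals alone among them. Of 8 other tested genes linked to Disc1, the scaffold protein that binds Ccdc141, 1 was lower and 3 higher at 2 h, and the 3 higher calls were lost with library totals alone.

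**Figure D3:**
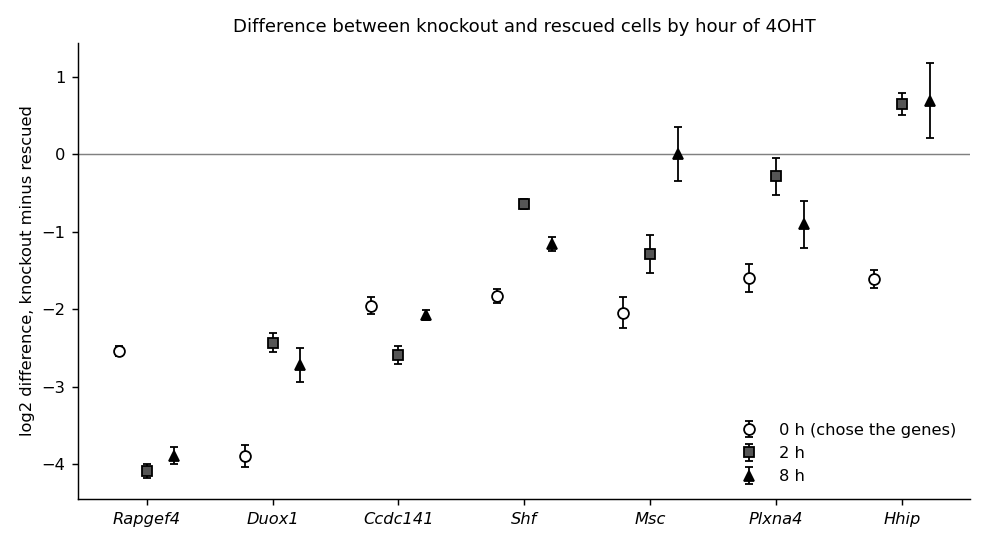
Log2 difference of knockout minus rescued cells (y axis, ± SE) for each gene at 0 h (open, the values that chose the genes), 2 h and 8 h. Rapgef4, Duox1 and Ccdc141 stay at or below -1.95 throughout, Shf lies at -0.64 and -1.16 after 4OHT, and Hhip stands above 0 at 2 h and 8 h.

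Msc was at 3.45, 2.32 and 3.53 CPM in knockout clones at 0 h, against 12.4, 14.1 and 11.7 CPM in rescued clones. The 2 h values were 1.53, 2.48 and 2.96 CPM in knockout clones and 4.90, 6.76 and 5.88 CPM in rescued clones, and those at 8 h 1.61, 0.999 and 2.31 against 1.11, 1.90 and 2.09 CPM. The groups were apart at 0 h and 2 h and overlapped at 8 h. The knockout level was 24.3% of the rescued one at 0 h, 41.1% at 2 h (log2 difference -1.28 ± 0.244, adjusted p = 0.000149, edgeR) and 101% at 8 h (0.01 ± 0.349, adjusted p = 0.987, edgeR). In rescued cells Msc fell by 1.88 on the log2 scale between 2 h and 8 h (adjusted p = 1.32e-07, edgeR), and in knockout cells the step was -0.58 ± 0.338 (adjusted p = 0.146, edgeR). The difference between the steps, 1.29 ± 0.44, was not called (adjusted p = 0.0634, edgeR) but passed with no filter on low counts (0.0328) and without knockout 2 h clone C, knockout 8 h clone B or rescued 8 h clone C (0.0415 to 0.0467). At 8 h Msc rested on 6 to 18 counts per library.

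Of 11 other tested bHLH genes, which share the dimerization domain of Msc, 4 were lower in knockout cells at 2 h and 1 higher, and 7 were lower and none higher at 8 h. Id1, which binds E proteins and keeps them off DNA, averaged 20.7 CPM in knockout cells against 75.7 CPM in rescued cells at 2 h (-1.86, adjusted p = 8.34e-18, edgeR). Id2, of the same kind, averaged 3.82 against 13.7 CPM at 8 h (-1.76, adjusted p = 1.27e-10, edgeR). The E protein gene Tcf3 differed less, with 161 CPM in knockout cells against 207 CPM in rescued cells at 2 h (-0.36, adjusted p = 5.05e-05, edgeR). Tcf15, a bHLH activator, averaged 24.6 against 45.6 CPM at 8 h (-0.90, adjusted p = 4.82e-09, edgeR). At 0 h 6 of the 11 were already lower and none higher (4 lower with library totals alone), among them Id1 (-0.82), Id2 (-0.70) and Tcf15 (-1.06). The share of all tested genes called in either direction at 0 h was 16.4%.

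Plxna4 had 2.87, 4.14 and 4.01 CPM in knockout clones at 0 h and 11, 12.3 and 10.3 CPM in rescued clones. The 2 h values were 2.75, 2.60 and 3.18 CPM in knockout clones and 3.27, 3.38 and 3.77 CPM in rescued clones, and those at 8 h 1.61, 0.999 and 1.26 against 1.96, 2.53 and 3.48 CPM. The rescued level at 2 h was close to that of the knockout, though no values crossed. The knockout level was 33.1% of the rescued level at 0 h, 82% at 2 h (log2 difference -0.29 ± 0.236, adjusted p = 0.433, edgeR) and 53.4% at 8 h (-0.90 ± 0.3, adjusted p = 0.0206, edgeR). The call at 8 h does not hold without the 3 knockout libraries rich in abundant genes (adjusted p = 0.245), without knockout 8 h clone B (0.091) or without rescued 8 h clone C (0.122). At 8 h Plxna4 rested on 6 to 16 counts per knockout library and 20 to 30 per rescued one. Among the 28 other tested semaphorins, plexins and neuropilins 12 were lower and 1 higher at 2 h, and 10 lower and none higher at 8 h (10 lower and 2 higher without the 3 knockout libraries rich in abundant genes, and 14 lower and none higher with library totals alone). Nrp2, the neuropilin that pairs with plexins in class 3 semaphorin receptors, averaged 231 CPM in knockout cells against 584 CPM in rescued cells at 2 h (-1.34, adjusted p = 4.09e-18, edgeR). Of the ligands, Sema6a averaged 16.6 against 44.2 CPM (-1.40), Sema3e 33.7 against 65.9 CPM (-0.96) and Sema4b 179 against 332 CPM (-0.89) at 2 h, each with an adjusted p of 9.89e-11 or less (edgeR). Sema6a was not called at 8 h (0.41, adjusted p = 0.115, edgeR), but passed as higher without those 3 libraries or without rescued 8 h clone C. Of the 28 genes 6 were lower and none higher at 0 h, or 1 lower with library totals alone. Among all tested genes 16.4% were called in either direction at 0 h. Nrp2 was among the 6 (-0.33), a call lost with library totals alone.

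Hhip was the gene whose order changed. At 0 h it was at 11.4, 9.39 and 10.1 CPM in knockout clones, against 32.8, 28.7 and 32.1 CPM in rescued clones. At 2 h the knockout clones had 11.6, 11.3 and 13 CPM and the rescued ones 6.29, 8.88 and 7.77 CPM, so every knockout value lay above every rescued one. At 8 h the knockout clones had 0.705, 0.832 and 0.839 CPM, from 4 to 7 counts each, and the rescued ones 0.261, 0.633 and 0.696 CPM, from 4 to 6 counts. The knockout level was 32.9% of the rescued level at 0 h and 157% at 2 h (log2 difference 0.65 ± 0.144, adjusted p = 0.000913, edgeR). At 8 h the difference was 0.69 ± 0.481 (adjusted p = 0.305, edgeR), not detectable at this depth. As 0 h chose the gene, the turn between 0 h and 2 h was not tested. Between 2 h and 8 h Hhip fell by 3.93 in knockout and by 3.98 in rescued cells on the log2 scale, and the difference of 0.04 ± 0.366 was not called (adjusted p = 0.974, edgeR).

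Hhip is itself a target of the pathway it blocks. Of 17 other tested Hedgehog genes 5 were lower and none higher in knockout cells at 2 h, and 4 were lower and 1 higher at 8 h (8 lower and none higher with library totals alone). Gli1, a transcription factor gene that Hedgehog signalling switches on, averaged 16.8 CPM in knockout cells against 31.1 CPM in rescued cells at 2 h (-0.90, adjusted p = 1.68e-08, edgeR), and 27.6 against 29.6 CPM at 8 h (-0.11, adjusted p = 0.383, edgeR). Gli2, the main activator, averaged 33.4 against 46.8 CPM at 2 h (-0.49, adjusted p = 3.61e-06, edgeR), and Gli3 93.8 against 118 CPM (-0.32, adjusted p = 2.83e-05, edgeR). Hhip was thus higher at 2 h while these 3 Gli genes, named for their small p in that contrast, were lower. Of the 17 genes 12 were not called at 2 h, among them Ptch1, the Hedgehog receptor gene (0.03). Gli1, Gli2 and Gli3 were already lower at 0 h (-0.87, -0.68 and -0.20, adjusted p of 0.0131 or less, edgeR). The Gli3 call at 0 h was lost with library totals alone and without knockout 0 h clone B. Of the 17 genes 6 were lower and none higher at 0 h, or 2 lower with library totals alone. Among all tested genes 16.4% were called in either direction at 0 h.

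**Figure D4:**
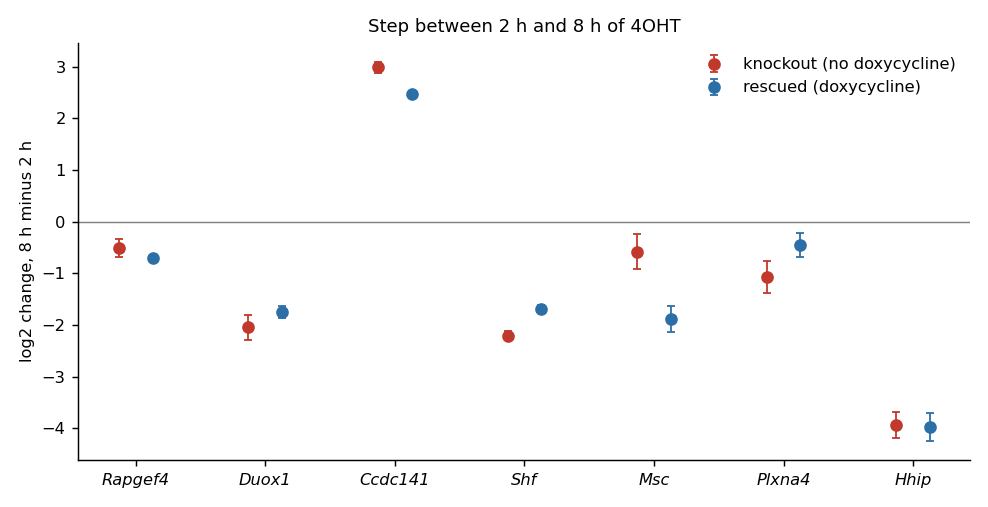
Log2 change from 2 h to 8 h of 4OHT (y axis, ± SE) in knockout (red, left) and rescued cells (blue, right). Ccdc141 rose in both states (2.99 and 2.47), Hhip had the deepest fall in both (-3.93 and -3.98), and the states lie farthest apart for Msc, where the difference was not called.

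Between 2 h and 8 h, a step that uses no 0 h library, 6 of the 7 genes changed in knockout cells, 5 lower and 1 higher, against 57.1% of all genes called (27.7% lower and 29.4% higher). In rescued cells 6 changed as well, again 5 lower and 1 higher, against 61% of all genes (30.2% lower and 30.7% higher). Most genes changed in this step. The difference between knockout and rescued cells itself changed between 2 h and 8 h for 2 of the 7, Shf and Ccdc141, 1 in each direction, against 9% of all genes (4.61% lower and 4.38% higher). These contrasts reuse the libraries of the comparisons at 2 h and 8 h.

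The levels of the 7 genes over time went different ways. From 0 h to 8 h the rescued log2 level changed by -6.00 for Hhip, -2.99 for Msc, -2.13 for Plxna4, -1.96 for Duox1, -1.35 for Rapgef4, -0.61 for Shf and 2.81 for Ccdc141, given with no test because 0 h chose the genes. In knockout cells the same changes were -3.70, -0.93, -1.44, -0.79, -2.71, 0.06 and 2.69 in that order of genes. Over the 18 libraries the Pearson correlation of log2 CPM between pairs of the 7 ran from -0.704 (Ccdc141 and Hhip) to 0.877 (Msc and Plxna4), a description over libraries that share 6 group means.

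By the same measure, over 10438 genes with a mean of at least 5 CPM, each gene had other genes with a like pattern. Among the closest to Duox1 were Med24 (r = 0.901) and Mtcl1 (0.893). Those closest to Shf were Atp11a (0.967), Tmem117 (0.963) and Dgcr8 (0.96), and those closest to Rapgef4 were Dclk2 (0.96), Mgat5b (0.957) and Slc29a3 (0.937). Slc29a3, which also lay just outside the ranking at 0 h, was lower at 2 h (9.06 CPM in knockout, 30.2 CPM in rescued cells) and at 8 h (12.9 against 33.3 CPM). Its likeness to Rapgef4 was taken over these same libraries, so the values only describe it. Id1 (0.974) and Tspan14 (0.969) were among those most like Ccdc141. Msc was most like Galnt7 (0.912), Pmepa1 (0.912) and Fblim1 (0.897), and Plxna4 most like Cask (0.974), Rimklb (0.945) and Ankib1 (0.936).

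Hhip was most like Klf4 (r = 0.991), a pluripotency transcription factor gene, Jam2 (0.98), a cell adhesion gene, and Ptch1 (0.976), the Hedgehog receptor gene. As these genes were picked for that likeness over the same libraries, their values are a description with no test. Klf4 averaged 99.1 CPM in knockout cells against 174 CPM in rescued cells at 0 h, 123 against 81.3 CPM at 2 h and 24.2 against 21.8 CPM at 8 h. Jam2 averaged 160 against 240 CPM at 0 h and 150 against 155 CPM at 2 h, and Ptch1 157 against 204 CPM at 0 h and 142 against 139 CPM at 2 h.

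**Figure D5:**
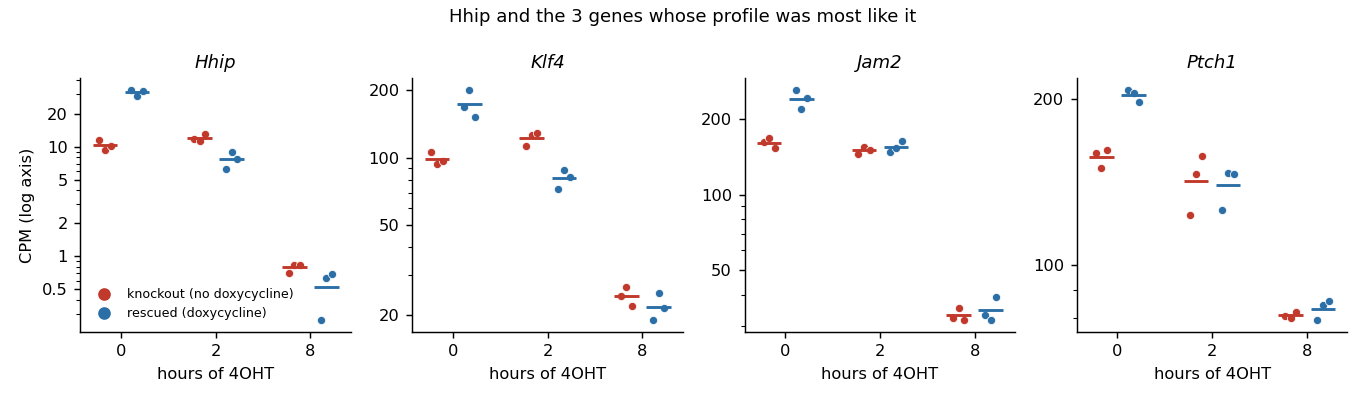
CPM of Hhip, Klf4, Jam2 and Ptch1 in every library (log axes) at 0, 2 and 8 h of 4OHT, with knockout (red) left of rescued (blue) and lines at the group means. The knockout means lie below the rescued means at 0 h in all 4, a likeness for which the 3 other genes were picked, and all 4 are at their lowest at 8 h.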

How the data were processed

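The deposited table holds whole-number read counts per gene symbol for 18 nascent RNA libraries, not normalized, and the authors' values entered the fit unchanged. STAR, featureCounts, DESeq and mm10 appear in the submitters' processing notes. No source used here gives versions, the annotation release, or the treatment of strand and introns. No spike-in is named, so every change is measured against the rest of the library.

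Counts were fitted with edgeR 4.0.16 in R 4.3.3 as one quasi-likelihood model of 6 group means, with TMM scaling and filterByExpr (14128 genes kept) and Benjamini-Hochberg adjustment at 0.05. CPM are TMM-scaled, and log2 differences are given ± SE. The procedure was tested on simulated data. Alternatives were RLE or no scaling factors, other filters, DESeq2 1.42.0, other library sets and a replicate block. Levels are not compared between genes, since counted lengths are not known. Counting intervals cover counting error only. Positions come from GENCODE M21.

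The 7 genes, the pathway and marker lists and the motifs were chosen with earlier results of these data known. Genes outside the 7 were named by rule, namely tested genes within 100 kb, up to 4 per pathway list with the smallest p at 2 h, the 3 with the highest correlation to each gene and the 3 just outside the ranking at 0 h. A few genes that the rule took are not reported here.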

Additional observations from a re-analysis of the deposited data

Results flagged for a closer look

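For 2 of the 7 genes the gap between knockout and rescued cells differed between 2 h and 8 h of 4OHT by a test of the difference itself. For Shf the log2 difference at 8 h minus that at 2 h was -0.522 ± 0.115 (adjusted p = 0.00271, edgeR), so that knockout cells were further below rescued cells at 8 h. For Ccdc141 it was 0.519 ± 0.138 (adjusted p = 0.0138, edgeR), so that they were less far below at 8 h. The 3 knockout libraries rich in abundant genes are all from these 2 times, and Ccdc141 was not called without them (adjusted p = 0.165). New Med24 RNA in rescued cells also differed between these times, with a mean of 1635 CPM at 2 h and 404 CPM at 8 h.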

How the results depend on the processing

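For the 7 genes 35 tested values were recomputed under 567 alternatives in all, of which 550 kept direction and call, 12 lost the call, 5 gained one and none reversed. All 98 alternatives at 0 h moved by less than 1 SD. The count of genes whose difference changed between 2 h and 8 h, 2, was 0 with library totals alone, 1 without the 3 knockout libraries rich in abundant genes, and 1 to 3 leaving out each library in turn (1 without knockout 2 h clone A, and 3 without knockout 2 h clone C, knockout 8 h clone B or rescued 8 h clone C). It was also 3 with no filter on low counts. The cause was not tested. Library totals alone gave 1661 called genes at 2 h against 3350 with TMM, 420 against 2324 at 0 h, and 371 against 1271 for the change between 2 h and 8 h. That scaling moved the median gene by -0.254 at 8 h and -0.164 in the last contrast on the log2 scale. The share of calls that were higher was then 18.4% against 45.7% at 2 h, 8.17% against 45.8% at 8 h, 21.3% against 48.7% for the change, and 61.2% against 50.4% for the step in rescued cells. With a replicate block by clone letter the counts of the 7 genes remained 5 lower and 1 higher at 2 h, 5 lower at 8 h, 6 and 6 for the steps, and 2, with 3347 genes called at 2 h and 4455 at 8 h. A fit of the 12 libraries of 2 h and 8 h alone gave the same counts for the 7. The labels tie no letter to a shared day or culture. Deviations of libraries with one letter had a mean correlation of 0.0164 (range -0.101 to 0.0826), with none over 0.1. Even so, 15 of 18 libraries were closest to others of their letter. The main fit did not use the letters as pairs, and the counts with them as a block are those given above. Of 116 calls in the 57 other genes taken by the naming rule 80 held in all alternatives and 25 were lost with library totals alone. Depth limits Hhip, Msc and Plxna4 at 8 h. The 5 genes lower at 8 h include Plxna4, whose call there held in 12 of 15 alternatives.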

Other observations

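Of the 65 genes called more than 2-fold lower in knockout cells at 0 h, 13 (20%) were on chromosome 2, where 7.77% of the tested genes with a position lie. Among genes more than 2-fold lower at 2 h and 8 h the shares on chromosome 2 were 9.71% and 10.2%. Beside Rapgef4, Ccdc141, Duox1, Shf and Duoxa1 they were Grin1, Scn1a, Scn9a, B3galt1, Map1a, Pcsk2, Tcf15 and Nrsn2. Some of them are close neighbours, such as Duoxa1, Duox1 and Shf, and others lie far apart. The 13 include 4 of the 7 genes, which were chosen at 0 h. The median log2 difference of all tested genes on the chromosome, which does not describe single stretches of it, was within 0.02 of 0 at each time. The count was made after the positions were seen and was not tested.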
